A study of Mus musculus with 6 samples.

Results

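The genes described are 5 secreted or membrane-bound factors by which bone cells act on osteoclasts and their precursors. They are Tnfsf11 (RANKL), Tnfrsf11b (osteoprotegerin, OPG), Csf1 (M-CSF), Il34 (interleukin-34) and Tnfsf13b (BAFF). They were taken by gene symbol from the 39179 genes of the expression table, and each symbol matched 1 gene. RNA was sequenced from Ocy454, a mouse osteocytic cell line of which a single subclone was used. The cells were grown to confluence at 33 °C and kept for 14 days at 37 °C before a treatment of 4 h. The vehicle, which the labels give as phosphate-buffered saline with 25 mM HCl although the study's methods name DMSO as the solvent for cell culture, was compared with the PTH(1-34) peptide at 1 nM and with YKL-05-093 at 0.5 µM, with 2 libraries per condition. YKL-05-093 inhibits the salt-inducible kinases (SIKs), and the design asks how far it and parathyroid hormone (PTH) have the same effect on RNA levels. The study reports that the compound also inhibits other kinases in vitro. Many genes changed by it and not by PTH still responded there in cells without SIK2 and SIK3. The libraries described here do not tell which kinases its effects depend on.

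RANKL is a ligand of the TNF superfamily that binds RANK on osteoclast precursors and drives them to become bone-resorbing osteoclasts. OPG is a soluble decoy receptor that captures RANKL, so the balance of both proteins sets how much ligand can reach RANK. M-CSF, and IL-34 at the same receptor (CSF1R), keep the precursors alive and dividing. Osteocytes, the cells embedded in bone matrix, are a source of RANKL in adult bone, and RANKL is known to respond to PTH.

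Levels are in RPKM, reads scaled to gene length and library size, so values of different genes can be set side by side. The number of reads behind each value was worked back from the deposited RPKM, and the library totals were between 17505798 and 27983585 reads. A gene entered the tests if 2 or more of the 6 libraries reached 0.5 RPKM, which held for 14264 genes. Of the 5 genes, Tnfsf11, Tnfrsf11b and Csf1 passed this filter, and Il34 and Tnfsf13b did not. Tnfsf11 passed through its treated libraries alone, since both vehicle libraries were under 0.5 RPKM. A gene was called when the adjusted p from limma was under 0.05 and the change was more than 2-fold, on the log2(RPKM + 0.1) scale. The study's methods call the 2 libraries of a condition experimental duplicates, and the labels do not say that they are separate cultures, so the p-values measure the spread between these libraries, which may be technical. The 2 vehicle libraries differed more from each other than those of the other conditions, with a median absolute log2 difference over the genes tested of 0.33, against 0.11 for PTH and 0.10 for YKL-05-093.

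In vehicle-treated cells Tnfrsf11b was the most abundant of the 5 transcripts, with 38.5 ± 3.77 RPKM (mean ± SD, n = 2), followed by Csf1 with 19.1 ± 1.69 RPKM. Il34 at 0.339 ± 0.133 RPKM and Tnfsf11 at 0.315 ± 0.0609 RPKM lay far below, and the libraries of these 2 genes overlapped, so they had no order. Tnfsf13b was the lowest, at 0.12 ± 0.00539 RPKM. After PTH, Tnfrsf11b (18.4 ± 1.80 RPKM) and Csf1 (17.1 ± 0.310 RPKM) overlapped, and Tnfsf11 followed closely with 11.6 ± 1.41 RPKM. After YKL-05-093 the order was Tnfrsf11b with 24.8 ± 5.22 RPKM, Csf1 with 6.95 ± 0.416 RPKM and Tnfsf11 with 2.83 ± 0.369 RPKM, without overlap between neighbours. Il34 and Tnfsf13b came last after both treatments.

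**Figure D1:**
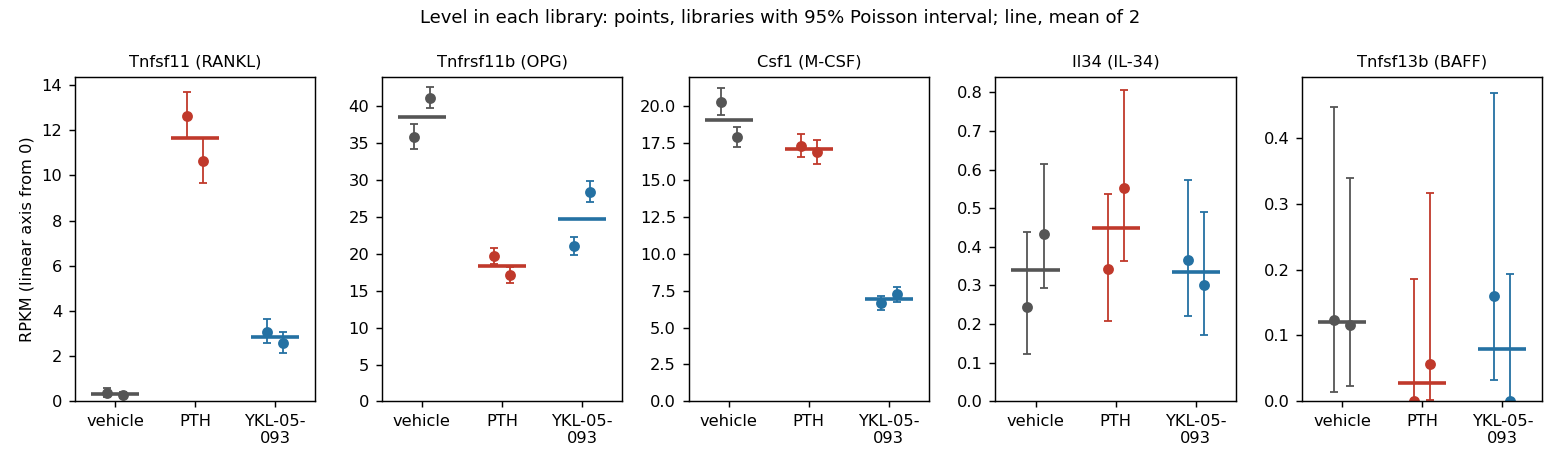
Level of the 5 genes in RPKM (linear vertical axes from 0, a different range for each gene) under each of the 3 conditions; points are single libraries with the 95% Poisson interval of their reads, and horizontal lines are means of 2 libraries. Tnfsf11 was under 0.36 RPKM in both vehicle libraries and at 10.6 RPKM or more after PTH, Csf1 was lowest after YKL-05-093, and Il34 and Tnfsf13b stayed under 0.56 RPKM throughout.

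Tnfsf11 (ENSMUSG00000022015, minus strand, chr14:78277445-78308043 of GRCm38, 1 annotated transcript) encodes RANKL and showed the largest difference of the 5 genes. It was measured at 0.358 RPKM (14 reads) and 0.272 RPKM (17 reads) in the vehicle libraries. PTH gave 12.6 RPKM (609 reads) and 10.6 RPKM (453 reads), and YKL-05-093 gave 3.09 RPKM (140 reads) and 2.57 RPKM (119 reads). All 3 conditions were separate, with vehicle lowest and PTH highest. The 95% Poisson intervals of the vehicle values, which cover counting error only, were 0.196 to 0.601 RPKM and 0.159 to 0.436 RPKM, and both lay below every treated library.

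Tnfsf11 rose after PTH by a log2 fold change of 4.82 (SE 0.21, 95% interval 4.33 to 5.32, adjusted p = 0.000456), which no other of the 14261 genes in this comparison exceeded on this scale. That place changed with the setting: 42 genes had a larger increase with a pseudocount of 0.01 RPKM, 1 with 1 RPKM and 2 by voom. It also changed with the libraries, to 3 larger increases without vehicle replicate 1, 9 without vehicle replicate 2 and 2 without PTH replicate 1. The ratio of the mean RPKM values, which is not damped by the pseudocount, was 36.9-fold. It rose after YKL-05-093 by 2.82 (SE 0.26, 95% interval 2.22 to 3.43, adjusted p = 0.00942), or 8.98-fold in mean RPKM. Both treatments were compared with the same vehicle libraries. The difference between the treatments was tested without them, and Tnfsf11 was higher after PTH by 2.00 on the log2 scale (SE 0.12, 95% interval 1.74 to 2.27, adjusted p = 2.64e-08). The call for YKL-05-093 was lost when the spread was modelled on the mean level in place of the reads (adjusted p = 0.0684), and both calls against vehicle were lost without the filter on low values (adjusted p = 0.0555 for PTH and 0.135 for YKL-05-093). Among the genes that passed the filter, the mean level of Tnfsf11 stood at the 1.72 percentile with vehicle, the 30.9 percentile with YKL-05-093 and the 65.0 percentile with PTH. The filter removes genes that are low in all libraries, and Tnfsf11 passed it through its treated libraries alone. Its low place with vehicle, and the climb from there, thus follow in part from the filter.

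The RefSeq promoter of Tnfsf11 is shown because this gene had the largest fold change of the 5. It gives the 250 bases before the annotated start, on the minus strand at chr14:78308044-78308293 of GRCm38.p6, and capitals mark the motifs found.
Tnfsf11: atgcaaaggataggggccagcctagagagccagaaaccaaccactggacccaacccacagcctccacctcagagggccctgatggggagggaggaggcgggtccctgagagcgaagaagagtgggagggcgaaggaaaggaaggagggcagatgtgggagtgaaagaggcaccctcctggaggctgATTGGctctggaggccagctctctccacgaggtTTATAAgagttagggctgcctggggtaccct
The letters TATAA of a TATA box core lay 30 to 26 bases before the start, overlapping the same motif on the other strand (TTATA, 31 to 27 bases before it). A CCAAT box on the other strand (ATTGG) lay 64 to 60 bases before the start. On both strands, TATAA was found in 22.8% and CCAAT in 33.8% of 32851 promoters of this length. The search also covered the GC box GGGCGG (32.7% of promoters), the cAMP response element half-site TGACG (17.8%), its full form TGACGTCA, which contains the half-site (1.55%), and the nuclear receptor half-site AGGTCA (14.0%). None of these letters was in this window of Tnfsf11, whose GC content was 60.4% against a median of 52.4%.

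Tnfrsf11b (ENSMUSG00000063727, minus strand, chr15:54250619-54278484 of GRCm38) encodes OPG and was lower in each treated library than with vehicle. The vehicle libraries had 35.9 RPKM (1766 reads) and 41.2 RPKM (3243 reads), and the PTH libraries 19.7 RPKM (1197 reads) and 17.1 RPKM (920 reads). YKL-05-093 gave 21.1 RPKM (1202 reads) and 28.4 RPKM (1660 reads), the widest spread of the 3 conditions. The conditions did not overlap, with PTH lowest.

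Tnfrsf11b fell after PTH by a log2 fold change of -1.06 (SE 0.17, 95% interval -1.46 to -0.66, adjusted p = 0.0263), just past the limit of 2-fold. This call was lost without vehicle replicate 2, where the change was -0.96, without PTH replicate 1 (adjusted p = 0.234), and without PTH replicate 2 (-0.96, adjusted p = 0.604). It was also lost without the filter (adjusted p = 0.123) and under either other model of the spread (0.0550 and 0.111). For YKL-05-093 its change was -0.65 on the log2 scale (SE 0.20, 95% interval -1.12 to -0.18), which did not pass the test (adjusted p = 0.351). Between PTH and YKL-05-093 the log2 difference was -0.41 (SE 0.11, 95% interval -0.64 to -0.18). Its adjusted p was 0.0228, but the change was under 2-fold.

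Csf1 (ENSMUSG00000014599, minus strand, chr3:107741048-107760469 of GRCm38) encodes M-CSF and separated the 2 treatments. The vehicle libraries had 20.3 RPKM (1909 reads) and 17.9 RPKM (2692 reads), and the PTH libraries 17.3 RPKM (2013 reads) and 16.9 RPKM (1732 reads). YKL-05-093 gave 6.65 RPKM (726 reads) and 7.24 RPKM (808 reads). The PTH libraries lay just below those of vehicle, and both YKL-05-093 libraries were far below all others. The annotation lists 7 transcripts of Csf1, of which 6 are coding, and the values per gene do not tell membrane-bound from secreted forms.

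Csf1 fell after YKL-05-093 by a log2 fold change of -1.44 (SE 0.16, 95% interval -1.83 to -1.06, adjusted p = 0.02). For PTH the log2 fold change was -0.15 (SE 0.17, adjusted p = 0.771), and its 95% interval from -0.54 to 0.23 does not contain a 2-fold change in either direction. The direct comparison put Csf1 higher after PTH than after YKL-05-093 by 1.29 (SE 0.07, 95% interval 1.13 to 1.44, adjusted p = 8.83e-09). The fall after YKL-05-093 lost its call without YKL-05-093 replicate 1 (adjusted p = 0.128), without YKL-05-093 replicate 2 (0.0516), without the filter (0.142), and under either other model of the spread (0.0684 and 0.103). The direct difference passed under all 16 alternatives.

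The RefSeq promoter of Csf1 is shown for comparison with that of Tnfsf11, since YKL-05-093 moved these genes in opposite directions. It covers the 250 bases before the start, on the minus strand at chr3:107760470-107760719 of GRCm38.p6, with the motifs found in capitals.
Csf1: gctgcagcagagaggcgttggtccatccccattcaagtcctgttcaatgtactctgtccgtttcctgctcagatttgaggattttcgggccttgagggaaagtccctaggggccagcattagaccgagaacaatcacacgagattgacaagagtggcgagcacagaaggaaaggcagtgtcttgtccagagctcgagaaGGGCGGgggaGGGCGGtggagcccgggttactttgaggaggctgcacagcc
This window held 2 GC boxes (GGGCGG), 51 to 46 and 41 to 36 bases before the start, and none of the other motifs. Its GC content was 56.4%. The TATA box core and the CCAAT box of the Tnfsf11 window were thus not among the letters of this one, and the GC box was not in that of Tnfsf11.

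Of the 3 genes tested, 2 were called after PTH (Tnfsf11 and Tnfrsf11b), where 1.91% of all genes tested were called. After YKL-05-093, 2 were called (Tnfsf11 and Csf1), against 0.666% of all genes tested. Between the treatments, 2 were called (Tnfsf11 and Csf1), against 1.21%. The genes were chosen with earlier results of these data known, and Tnfsf11 passed the filter through its treated libraries alone. These counts are therefore no separate result about the genes as a set. The calls of Tnfrsf11b for PTH and of Csf1 for YKL-05-093 against vehicle were also lost under some alternatives. Groups without overlap were common among all genes, at 43.1% when PTH was set against vehicle, 37.8% when YKL-05-093 was, and 50% between the treatments, so the lack of overlap of these 3 genes in each comparison carries little weight with 2 libraries per group.

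**Figure D2:**
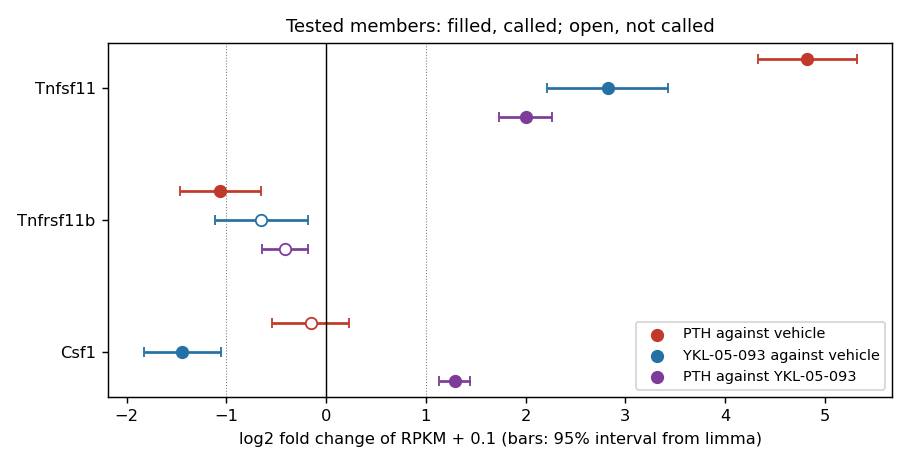
Log2 fold change (horizontal axis, of RPKM + 0.1) of the 3 tested genes in the 3 comparisons, with 95% intervals from limma; filled points passed both criteria of the call and dotted lines mark 2-fold. Tnfsf11 lay right of the 2-fold line in each comparison, Tnfrsf11b left of 0 in each, and Csf1 was near 0 for PTH (-0.15) but at -1.44 for YKL-05-093.

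Il34 (ENSMUSG00000031750, minus strand, chr8:110741829-110805924 of GRCm38), the other ligand of CSF1R, was found at a low level in every library. The vehicle libraries had 0.246 RPKM (11 reads) and 0.433 RPKM (31 reads), the PTH libraries 0.344 (19 reads) and 0.553 RPKM (27 reads), and the YKL-05-093 libraries 0.366 (19 reads) and 0.302 RPKM (16 reads). All 3 conditions overlapped. With the filter lowered to 0.1 RPKM, the log2 fold change was 0.33 for PTH (95% interval -0.49 to 1.14, adjusted p = 0.786) and 0.01 for YKL-05-093 (95% interval -0.78 to 0.80, adjusted p = 0.997). For PTH this interval reaches past 2-fold, so an increase of that size is not excluded. Gm15894 and Gm15895 overlap exons of Il34 on the other strand, and each had at most 1 read in a library.

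Tnfsf13b (ENSMUSG00000031497, plus strand, chr8:10006467-10039072 of GRCm38) encodes BAFF, a survival factor of B cells. Its values were 0.124 and 0.116 RPKM with vehicle, 0 and 0.0568 RPKM with PTH, and 0.160 and 0 RPKM with YKL-05-093. The smallest whole numbers of reads that give these values are 2, 3, 0, 1, 3 and 0, all at or under the floor of 3 reads, although a multiple of them cannot be told apart. No fold change is given, and a difference between the conditions was not detectable at this depth. In the libraries with a value of 0, the floor of 3 reads corresponds to 0.150 RPKM (PTH replicate 1) and 0.157 RPKM (YKL-05-093 replicate 2), if 1 step is 1 read.

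The ratio of Tnfsf11 to Tnfrsf11b within a library, the RANKL to OPG ratio at the RNA level, does not depend on scaling between libraries. It was 0.01 and 0.00661 with vehicle, far below equal levels. It was 0.641 and 0.621 with PTH, and 0.147 and 0.0904 with YKL-05-093. The 3 conditions were separate, and Tnfrsf11b remained the more abundant transcript in every library.

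The ratio was 77.6-fold higher with PTH than with vehicle (log2 difference 6.28) and 14.2-fold higher with YKL-05-093 (log2 difference 3.83). It was 5.48-fold higher with PTH than with YKL-05-093 (log2 difference 2.45). The exact two-sided permutation test gave p = 0.333 in each of these comparisons, which is the smallest p that 2 libraries against 2 allow. On the log2 scale without a pseudocount, Tnfsf11 made up 83.0% of the difference in the ratio for PTH against vehicle, and Tnfrsf11b 17.0%. These shares were 83.0% and 17.0% for YKL-05-093 against vehicle, and 83.1% and 16.9% between the treatments.

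**Figure D3:**
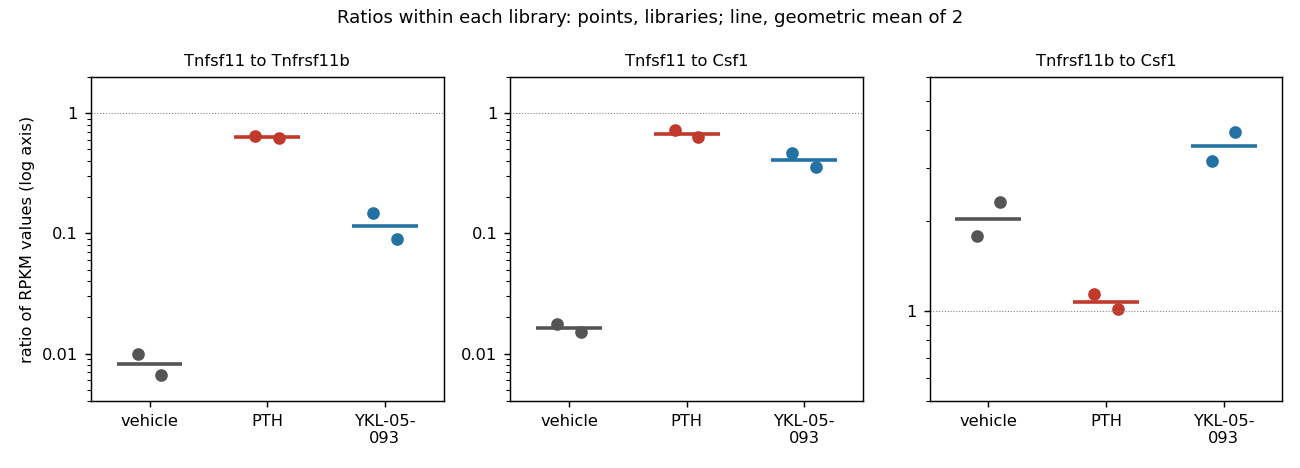
Ratios of RPKM values within each library (log vertical axes; the third panel has a narrower range); points are libraries, horizontal lines are geometric means of 2 libraries, and the dotted line marks equal levels. The ratio of Tnfsf11 to Tnfrsf11b rose from at most 0.01 with vehicle to at least 0.621 with PTH, and the ratio of Tnfrsf11b to Csf1 was lowest with PTH and highest with YKL-05-093.

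The ratios to Csf1 set the treatments apart in another way. Tnfsf11 to Csf1 had geometric means of 0.0164 with vehicle, 0.678 with PTH and 0.406 with YKL-05-093. PTH and YKL-05-093 differed in this ratio by 1.67-fold, against 5.48-fold in the ratio to Tnfrsf11b. Csf1 was also lower after YKL-05-093. Tnfrsf11b to Csf1 was 2.02 with vehicle, 1.08 with PTH and 3.53 with YKL-05-093, so this ratio lay below vehicle for PTH and above it for YKL-05-093. The libraries of the 3 conditions did not overlap in either ratio, and the smallest exact permutation p was again 0.333.

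Of 8 genes for receptors of the 4 ligands, 3 were at or under 3 reads in every library. Another 2, Sdc1 and Lgr4, passed the filter, and neither was called in any comparison. At an unadjusted p under 0.05 there were 0 for either treatment against vehicle and 2 between the treatments, and voom on the recovered reads also called 0. Of all genes tested, 13.3% (PTH), 8.67% (YKL-05-093) and 22.3% (between the treatments) had an unadjusted p under 0.05. For the same comparisons, limma called 1.91%, 0.666% and 1.21%, and voom 2.01%, 0.673% and 1.34%. Tnfrsf11a (RANK) had at most 1 read in a library, and Csf1r, the receptor of M-CSF and IL-34, at most 14 reads. Sdc1 (syndecan-1, reported to bind IL-34) was at 39.5 ± 3.11 RPKM with vehicle, 43.2 ± 1.80 with PTH and 37.2 ± 0.410 with YKL-05-093. Lgr4, a further receptor for RANKL, was at 4.42 ± 1.14, 3.06 ± 0.543 and 3.73 ± 0.112 RPKM in the same order.

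The 4 proteases reported to release RANKL from the membrane, Mmp14, Adam10, Adam17 and Adam19, all passed the filter, and 0 were called by limma or by voom in any comparison. At an unadjusted p under 0.05 there was 1 after PTH and 1 between the treatments, and 0 after YKL-05-093. Of all genes tested, limma called 1.91% (PTH), 0.666% (YKL-05-093) and 1.21% (between the treatments), and voom 2.01%, 0.673% and 1.34%. An unadjusted p under 0.05 was found for 13.3%, 8.67% and 22.3%. With 4 genes, 0 called is near these shares and carries little weight. The median log2 fold change of the 4 proteases was -0.13 after PTH and -0.20 after YKL-05-093, beside -0.03 and -0.04 for all genes tested.

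Among 13 transcription factors and co-factors linked to Tnfsf11, measured as 14 gene identifiers, 4 identifiers were called higher and 1 lower after PTH. After YKL-05-093, 1 was called higher. Of all genes tested, 1.09% were called higher and 0.813% lower after PTH, and 0.393% higher and 0.274% lower after YKL-05-093. The median log2 fold change of the 14 was -0.20 after PTH and -0.18 after YKL-05-093. Vdr, the vitamin D receptor, stood at 3.86 ± 0.779 RPKM with vehicle, 58.2 ± 1.91 with PTH and 54.8 ± 0.0977 with YKL-05-093. It rose by a log2 fold change of 3.90 (SE 0.19, adjusted p = 0.000456) and of 3.81 (SE 0.19, adjusted p = 0.00121), respectively. Unlike Tnfsf11, Vdr did not pass the test between the treatments, with a log2 difference of 0.09 (SE 0.07, adjusted p = 0.518).

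Hdac4, a class IIa histone deacetylase, has 2 identifiers in the table, which rose after PTH by 1.66 (adjusted p = 0.0173) and 1.72 (adjusted p = 0.0145) on the log2 scale. They may share reads. Stat3, which relays signals of interleukin-6 type cytokines, rose by 1.28 (SE 0.21, adjusted p = 0.0254), and its exons overlap those of Stat5a on the other strand. Mef2c, a transcription factor held in check by class IIa deacetylases, fell after PTH by a log2 fold change of -1.43 (SE 0.24, adjusted p = 0.0290). Creb1 and Crtc2, the cAMP-responsive factor and one of its co-activators, were not called, with log2 fold changes after PTH of -0.15 (SE 0.25, adjusted p = 0.854) and -0.04 (SE 0.17, adjusted p = 0.958). Between the treatments 0 of the 14 identifiers were called by limma or voom, with 7 at an unadjusted p under 0.05. Of all genes tested, limma called 1.21% there and voom 1.34%, and 22.3% had an unadjusted p under 0.05.

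Of 14 other secreted factors or their enzymes that favour osteoclasts, 8 passed the filter. After each treatment 1 was called, in both cases lower, and it was Cxcl12, a chemokine for haematopoietic precursors. Among all genes tested, 0.813% were called lower after PTH and 0.274% after YKL-05-093. Cxcl12 was at 21.1 ± 0.525 RPKM with vehicle, 9.72 ± 1.14 with PTH and 9.29 ± 0.314 with YKL-05-093. It fell by a log2 fold change of -1.11 after PTH (SE 0.17, adjusted p = 0.0217) and of -1.17 after YKL-05-093 (SE 0.16, adjusted p = 0.0323). Ccl2, a chemokine for monocytes, was at 31.7 ± 12.6 RPKM with vehicle, 48.2 ± 1.80 with PTH and 11.8 ± 1.09 with YKL-05-093. Like Csf1 it was called between the treatments (log2 difference 2.03, SE 0.09, adjusted p = 4.55e-10), but it was called in neither comparison with vehicle. Il6 had log2 fold changes of 1.90 after PTH (adjusted p = 0.0872) and 1.87 after YKL-05-093 (adjusted p = 0.183), and was not called.

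Of 10 other secreted factors listed as restraining osteoclasts, 5 passed the filter. The 10 include Sost, which did not pass and encodes a WNT antagonist known for blocking bone formation. After PTH 2 were called higher, after YKL-05-093 1, and between the treatments 2 were higher with PTH, where 0.737% of all genes tested were called higher and 0.47% lower. Against vehicle, the shares of all genes called higher were 1.09% for PTH and 0.393% for YKL-05-093. Wnt4, a WNT ligand, was at 0.451 ± 0.0980 RPKM with vehicle, 8.32 ± 1.17 with PTH and 1.99 ± 0.0808 with YKL-05-093. With that vehicle mean under 0.5 RPKM, Wnt4 needed its treated libraries to pass the filter, so its place among the genes tested follows in part from its rise. It rose by a log2 fold change of 3.94 after PTH (SE 0.20, adjusted p = 0.000537) and of 1.93 after YKL-05-093 (SE 0.22, adjusted p = 0.02), and the treatments differed by 2.00 (SE 0.11, adjusted p = 7.07e-09). Sfrp1, a secreted WNT antagonist, rose after PTH by 1.10 (SE 0.20, adjusted p = 0.0370). For YKL-05-093 the value was -0.02 (SE 0.23, adjusted p = 0.993).

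Of the 16 other ligands of the TNF superfamily, 9 were at or under 3 reads in every library and 2 passed the filter. Neither was called in any comparison by limma or voom, and 0 had an unadjusted p under 0.05. With 2 ligands tested, this cannot show whether the changes of Tnfsf11 are particular to it. Of the 23 other receptors of the superfamily, 14 passed the filter. After PTH 2 were called higher, Tnfrsf9 (4-1BB) by a log2 fold change of 2.33 (SE 0.17, adjusted p = 0.00148) and Tnfrsf19 (TROY) by 1.66 (SE 0.18, adjusted p = 0.00540). After YKL-05-093 0 were called by limma or voom, with 4 at an unadjusted p under 0.05. Tnfrsf9 and Tnfrsf19 were higher with PTH than with YKL-05-093, by 1.38 (SE 0.12, adjusted p = 7.01e-07) and 1.26 (SE 0.08, adjusted p = 2.55e-08). Among all genes tested, 1.09% were called higher after PTH and 0.737% with PTH against YKL-05-093. An unadjusted p under 0.05 after YKL-05-093 was found for 8.67% of all genes tested.

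**Figure D4:**
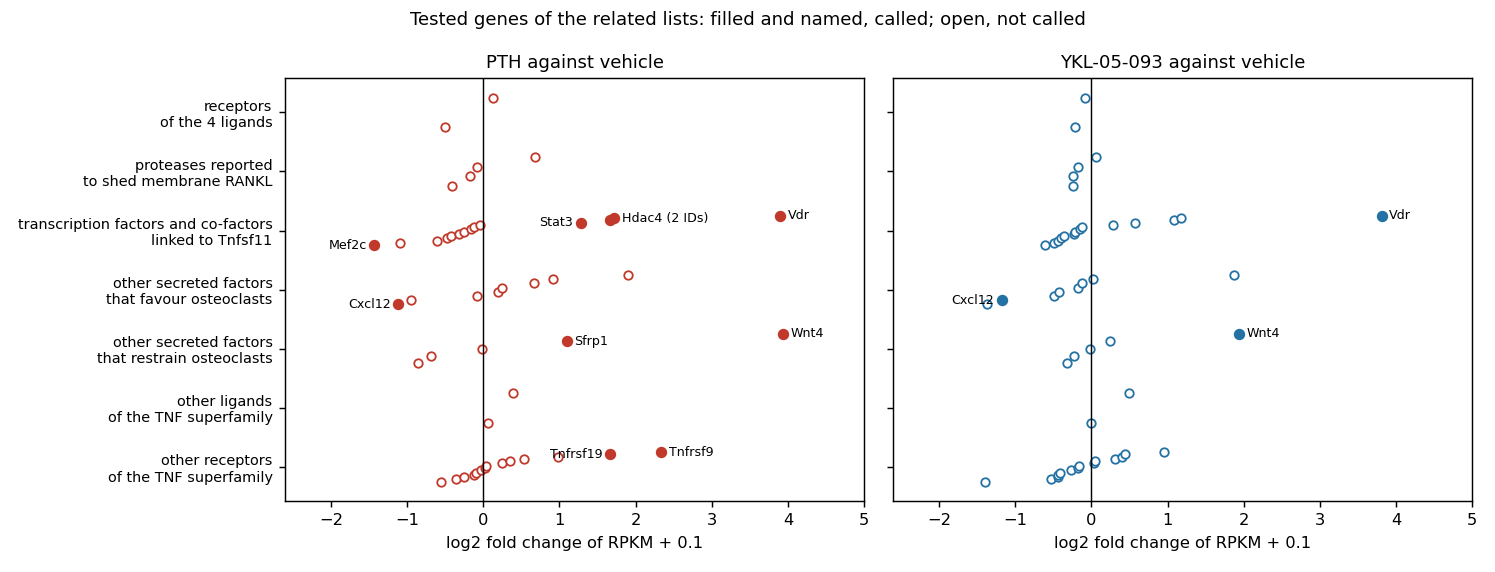
Log2 fold changes (horizontal axes, of RPKM + 0.1) of the tested genes in the 7 related lists, for PTH (left) and YKL-05-093 (right) against the same vehicle libraries; filled, named points were called and open points were not. Vdr lay at 3.90 and 3.81, Wnt4 at 3.94 and 1.93, and Cxcl12 at -1.11 and -1.17, while receptors of the ligands and shedding proteases held no called gene.

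The genes whose profile over the 6 libraries was closest to each called gene were listed by the Euclidean distance between log2(RPKM + 0.1) values centred on the vehicle mean, among the 11884 tested genes whose reads averaged 50 or more. For Tnfsf11 these included Crispld2 (distance 1.58), Wnt4 (1.84), Vdr (1.93) and Kcnk10 (2.72). Crispld2 was at 0.0994 RPKM with vehicle, 2.83 with PTH and 0.856 with YKL-05-093. Crispld2 and Wnt4 had the order of Tnfsf11, with PTH above YKL-05-093, and were called in all 3 comparisons. Vdr and Kcnk10 rose about as far with either treatment, and neither was called between them.

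For Tnfrsf11b the closest were Myc (distance 0.290), En1 (0.353), Polr3e (0.363), Irx3 (0.388) and Cdo1 (0.390). Polr3e, Irx3 and Cdo1 were called lower after PTH, with log2 fold changes of -1.01, -1.06 and -1.30, and Myc (-0.93) and En1 (-0.98) were under 2-fold. None of the 5 was called for YKL-05-093. Irx3 overlaps Irx3os on the other strand. For Csf1 the closest were Socs5 (0.288), Prkg2 (0.295), Pcdh10 (0.295), Etv5 (0.477) and Id2 (0.494). All 5 were called lower after YKL-05-093 and none after PTH. Etv5, a transcription factor of the ETS family, had a log2 fold change of -1.71 (adjusted p = 0.0137), and Id2, an inhibitor of basic helix-loop-helix factors, one of -1.20 (adjusted p = 0.0318). Pcdh10 overlaps 1700027H10Rik on the other strand. These likenesses are a description over 6 libraries, with no test. The genes closest to Tnfsf11, Tnfrsf11b and Csf1 were picked by their values in these same libraries. Their calls therefore follow largely from that choice and are no separate result.

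**Figure D5:**
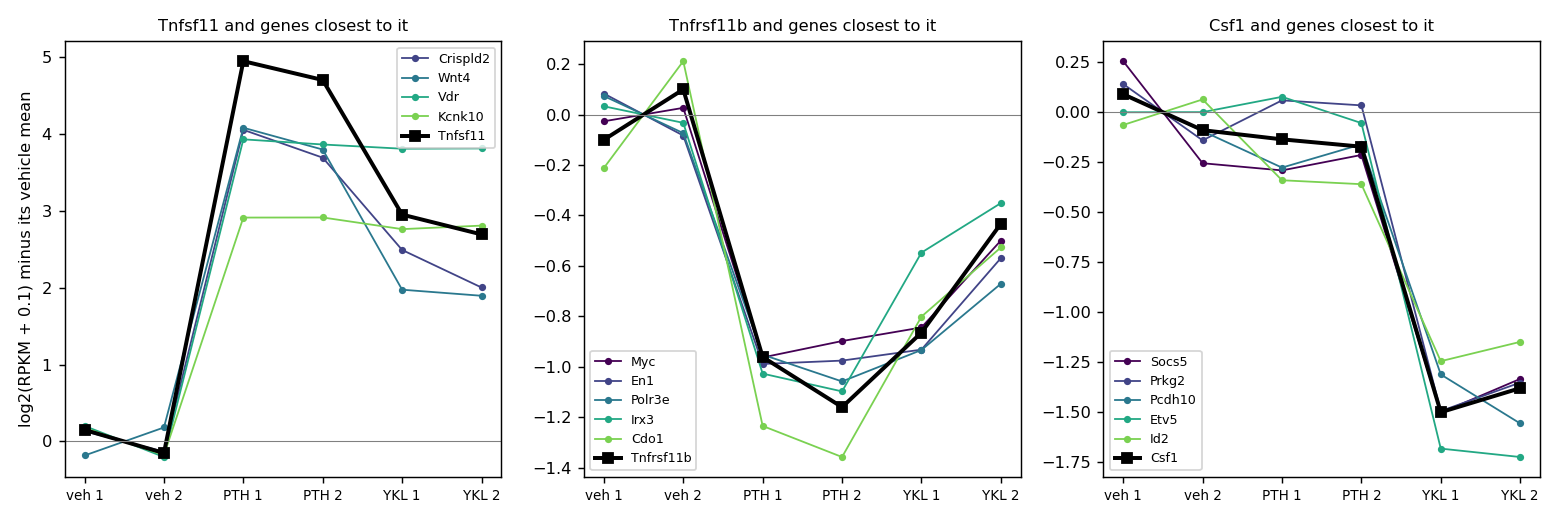
Profiles of Tnfsf11, Tnfrsf11b and Csf1 (black squares) and of genes among the 5 closest to each (coloured; 4 for Tnfsf11), as log2(RPKM + 0.1) minus the vehicle mean (vertical axes of different range) in the 6 libraries (horizontal axis; veh, vehicle; YKL, YKL-05-093). Tnfsf11, Crispld2 and Wnt4 were higher with PTH than with YKL-05-093, while Vdr was level, and the genes closest to Csf1 were low in the YKL-05-093 libraries.

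Of 10 osteoclast markers, 6 were at or under 3 reads in every library, including Acp5, Calcr and Tnfrsf11a, with Ocstamp at 0, while Ctsk was between 74.1 and 86.0 RPKM with vehicle. The 10 together summed to between 77.4 and 88.4 RPKM with vehicle, 92.5 and 100.5 with PTH, and 94.97 and 96.0 with YKL-05-093. The 8 macrophage markers summed to between 4.15 and 5.04 RPKM in any library, most of it Cd68, and the 4 B cell markers to at most 0.127 RPKM, with Cd79b and Ms4a1 at 0. The 4 endothelial markers summed to at most 1.14 RPKM with vehicle, 1.44 with PTH and 2.17 with YKL-05-093. Of the osteocyte markers, Sost and Fgf23 were at or under 3 reads in every library and Mepe at or under 4, and Dmp1 was between 0.376 and 1.15 RPKM. Phex was between 0.764 and 4.93 RPKM. Its log2 fold changes of 1.30 after PTH (adjusted p = 0.303) and 1.53 after YKL-05-093 (adjusted p = 0.246) were not called. The 6 osteocyte markers summed to between 55.7 and 73.3 RPKM with vehicle, 165.5 and 176.2 with PTH, and 98.4 and 99.1 with YKL-05-093, mostly Pdpn. All 7 osteoblast markers passed the filter, and they summed to between 737.2 and 832.0 RPKM with vehicle, 876.1 and 1067.7 with PTH, and 889.6 and 1155.3 with YKL-05-093. After PTH 3 of the 7 were called, Bglap (log2 fold change 1.58, SE 0.26, adjusted p = 0.0283) and Bglap2 (1.49, SE 0.25, adjusted p = 0.0279) higher and Sp7 lower (-1.97, SE 0.16, adjusted p = 0.00189). Among all genes tested, 1.91% were called after PTH. Pdpn was called higher after PTH (1.44, adjusted p = 0.0147), and the endothelial marker Kdr after YKL-05-093 (1.42, adjusted p = 0.0377). Sp7, a transcription factor of osteoblasts, had 46.0 and 45.5 RPKM with vehicle and 12.2 and 11.1 with PTH. Runx2 had 19.5 and 13.0 RPKM with vehicle and 7.87 and 7.02 with PTH, and was not called (adjusted p = 0.0624). The part of these markers in the results was not tested.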

How the data were processed

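Ribosomal RNA was removed from total RNA of 6 Ocy454 samples, and directional libraries were sequenced. Per the study's methods and the submitters' processing notes, which name CASAVA 1.7 and STAR, the authors aligned the reads to mm10/GRCm38, counted them per gene with HTSeq on an Ensembl annotation, and deposited RPKM values, 1 column per library. Whether counting used strand, and which gene length was used, is not given in the sources used here. Beyond the scaling to library size that RPKM contains, the values were not scaled further between libraries for the main tests. The 12 columns of the single files and series table hold the same values.

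Reads were recovered as the whole numbers behind the RPKM steps. Of 26214 genes above 0 in any library, 100% came out whole in all 6 libraries to within 0.001 reads, but lengths and totals were searched for this. For 36.0% of them the length equals the merged exons of the GENCODE annotation, less 1 base per exon. This annotated length was used wherever it was a multiple of the smallest length found from the values. For the other genes the recovered reads are the smallest number that the values allow. Intervals are exact Poisson intervals at 95%, which cover counting error only, and 3 reads were the floor.

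limma 3.58.1 in R 4.3.3 was run on log2(RPKM + 0.1) for the 4 libraries of each comparison, with the prior variance as a trend on mean log2 recovered reads and Benjamini-Hochberg adjustment over all genes tested. The pseudocount understates changes of low genes. Genes with no spread at all were left out, which leaves 14261 genes for PTH against vehicle and 14255 for both others. Ratios were compared by exact permutation tests (scipy 1.17.1, Python 3.11.15).

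The 5 genes, the lists and the test settings were chosen with earlier results of these data known. Named are the 5 genes, every gene of a list called in any comparison (at most 6 per list, by the size of the change), and the 5 genes closest to each called gene. Genes of these that are not named in the text are not reported here. Other genes of the lists were named after their values were seen. Promoters were taken from a RefSeq table, which held 3 of the 5 genes.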

Additional observations from a re-analysis of the deposited data

How the results depend on the processing

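No direction reversed for Tnfsf11, Tnfrsf11b or Csf1 under their 16 alternatives in each comparison, or for the ratio of Tnfsf11 to Tnfrsf11b under its 6. The ratios to Csf1 were not run under alternatives, and Il34 and Tnfsf13b were run under filter settings alone. Without a filter on low values, 0 of the 5 genes were called for PTH and 0 for YKL-05-093 (Tnfsf11, log2 fold changes 4.82 and 2.82, adjusted p = 0.0555 and 0.135), and 0 of all genes passed. With the prior variance as a trend on the mean value, 1 gene was called for PTH and 0 for YKL-05-093 (Tnfsf11 2.82, adjusted p = 0.0684). With 1 prior variance for all genes, 1 gene was called in each comparison, and Tnfsf11 (2.00, adjusted p = 0.0558) was lost between the treatments. Leaving out 1 library gave 1 to 2 called genes for PTH, 1 to 2 for YKL-05-093 and 2 between the treatments. Tnfsf11 then had log2 fold changes of 4.67 to 4.97, 2.67 to 2.97 and 1.87 to 2.13. A lone library is assumed to vary like the other group, and all genes called ranged from 189 to 716 for PTH, from 85 to 373 for YKL-05-093 and from 137 to 264 between the treatments. Over the other settings these counts were 0 to 440 (272 as reported), 0 to 215 (95) and 51 to 196 (172). The cause of these shifts was not tested.

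The replicate numbers were not taken to pair libraries, since deviations of same-numbered libraries had correlations of -0.03 (vehicle and PTH), -0.05 (vehicle and YKL-05-093) and -0.05 (PTH and YKL-05-093). With the replicate number as a block, 2 genes were again called in each comparison, and all genes called were 440, 215 and 196. The ratio of Tnfsf11 to Tnfrsf11b had log2 differences of 5.88 to 6.58, 3.47 to 4.18 and 2.10 to 2.80 over its 6 alternatives. Few reads limit the precision for Il34 and Tnfsf13b.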

Other observations

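Of the 4 genes tested within 500 kb of the start of Tnfsf11, 0 were called by limma or voom in any comparison. At an unadjusted p under 0.05 there were 0 for either treatment against vehicle and 2 between the treatments. Of all genes tested, limma called 1.91% (PTH), 0.666% (YKL-05-093) and 1.21% (between the treatments), and voom 2.01%, 0.673% and 1.34%. An unadjusted p under 0.05 was found for 13.3%, 8.67% and 22.3%. With 4 genes, 0 called is near these shares and carries little weight. Near Tnfrsf11b, 1 gene was tested (Nov, a matricellular protein gene), with log2 fold changes of -0.09 for PTH (adjusted p = 0.869) and -0.03 for YKL-05-093 (adjusted p = 0.982). The genes near Csf1 are not reported here, so these values do not describe neighbours in general.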
